A study of Mus musculus with 64 samples.

Results

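CD4 T cells that carry neither KLRG1 nor CD103 were followed through colitis in SCID mice that had received T cells. They were chosen by their antibody counts: a cell belonged if its centred log ratios of CD3 and CD4 were high and those of KLRG1, CD103, CD11b and CD64 were low. Of 130442 cells kept from 131917 barcodes, 38621 met all 6 thresholds, which is 29.6% of all cells and 66.8% of the 57817 CD4 T cells (CD3+CD4+ without CD11b and CD64). The other CD4 T cells were 8923 KLRG1+CD103- cells and 10273 CD103+ cells, the CD103+ cells with or without KLRG1. Because the 6 antibodies chose the cells, their values are given as a description and without a test.

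The study pooled colon tissue of 3 animals for each library, sorted the EpCAM-/CD45+ immune fraction and counted 11 sequence-tagged antibodies on single cells. The 9 libraries used here are from SCID mice that received a CD45RBhi transfer, in which naive T cells are given to a lymphocyte-deficient host. One is from week 7 of mice that also received anti-IL-12p40 from day 10, an antibody against the subunit shared by the cytokines IL-12 and IL-23, and 8 are from mice without that antibody, 1 for each of weeks 0 to 7. SCID hosts lack their own T and B lymphocytes but keep innate lymphoid and myeloid cells, and since each week is 1 pool, its spread between pools cannot be measured. The other 55 of the 64 samples were not analysed here.

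KLRG1 is an inhibitory lectin-like receptor that appears on lymphocytes after strong or repeated stimulation. CD103, the αE chain of an integrin that binds E-cadherin on epithelial cells, is typical of T cells lodged in mucosa. CD4 T cells with neither protein include naive, central memory and many effector cells, so the phenotype is defined by absence and is not a lineage. CD127, the α chain of the receptor for interleukin-7, a survival cytokine of T cells, is lost on many recently activated effector cells and kept on memory cells. On GRCm38 (GENCODE annotation vM21), the gene for KLRG1 (Klrg1) lies at chr6:122270596-122282882 on the minus strand. The gene for CD103 (Itgae) lies at chr11:73090583-73147446 on the plus strand and that for CD127 (Il7r) at chr15:9505788-9530176 on the minus strand.

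The libraries held 12914066 to 28723452 antibody counts each. The median KLRG1- CD103- cell had 1901.5 counts in the treated library, and 813 to 1482 counts in the untreated libraries of weeks 1 to 7. Barcodes outnumbered the roughly 16000 loaded cells in 3 libraries, and doublets were not removed beyond an upper limit on total counts. Each of the 36 pairs of libraries shared 30 to 110 barcodes, and 0 to 23 barcodes that were KLRG1- CD103- cells in both, 194 over all pairs. Ranges in parentheses after a share are its 95% Clopper-Pearson interval (exact), for counting error alone.

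Apart from the thresholds, the cells carried the T cell marker of the panel and few carried myeloid ones. CD90.2 (Thy1), the T cell marker that set no threshold, was positive on 86.9% (week 5) to 99.9% (week 2) of KLRG1- CD103- cells in the libraries of weeks 1 to 7 and on 99.5% in the treated library. Their CD90.2 medians in the untreated libraries were 376 to 977 counts per cell, against 28 to 105 counts in CD3- myeloid cells of the same weeks. Of the myeloid antibodies that set no threshold, CD11c was positive on 0.472% (week 7) to 5.50% (week 2) of KLRG1- CD103- cells and Ly-6G on at most 0.114%. Another 2913 CD3+CD4+ cells, 4.80% of 60730, carried CD11b or CD64 and were left out by the thresholds.

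The thresholds for KLRG1 and CD103 fall on the shoulder of a distribution and not in an empty gap. Within 0.1 of the KLRG1 threshold, 712 cells lay just inside with a median of 10 KLRG1 counts, and 709 cells lay just outside with a median of 12 counts. For CD103 the 697 cells just inside had a median of 25 counts, and the 674 cells just outside had 30 counts. For CD3, whose lower bound defines a T cell, the 732 cells just inside had a median of 20 counts and the 588 just outside had 17. Over all 6 thresholds, 2261 cells, 5.85% of those chosen, lay within 0.1 of at least 1 of them. A median KLRG1- CD103- cell had 0 to 3 KLRG1 counts and 1 to 7 CD103 counts, depending on the library. The share with no KLRG1 count at all ranged from 9.52% at week 3 to 59.7% at week 1, while the threshold was the same in every library.

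**Figure D1:**
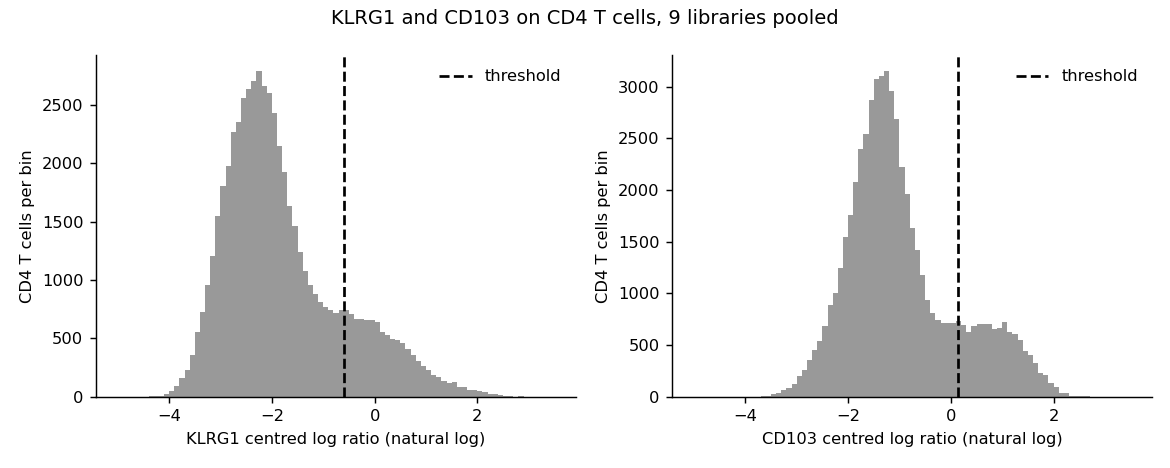
Histograms of the centred log ratio of KLRG1 (left) and CD103 (right) on the 57817 CD4 T cells of 9 libraries pooled, in bins of 0.1 natural log units, with the threshold as a dashed line. Cells left of both lines are the 38621 KLRG1- CD103- cells, and neither threshold sits in an empty gap.

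The first comparison asked how these cells accumulate after transfer. KLRG1- CD103- CD4 T cells rose with time among all immune cells. At week 0 there was 1 such cell among 16735, a share of 0.00598% (0.000151 to 0.0333). Week 1 had a share of 3.43%, week 2 one of 21.7% and week 3 one of 34.8%. Weeks 4, 5 and 6 followed with 37.8%, 47.1% and 43.7%, and week 7 was the highest with 55.1% (54.2 to 56.0). Each week was above the one before, except week 6. The rank correlation with week over the 8 untreated libraries was 0.976 (two-sided exact permutation p = 0.000397, Benjamini-Hochberg adjusted p = 0.00159 over 4 share trends), and Pearson's r was 0.960 (exact permutation p = 0.000149, adjusted p = 0.000595). Without weeks 0 and 7, the libraries farthest from the middle of the series, the rank correlation was 0.943 and no longer passed after adjustment (exact permutation p = 0.0167, adjusted p = 0.0667). The median CD3 count of KLRG1- CD103- cells was 36 at week 6, 36 at week 2 and 58 at week 7. Whether CD3 counts set the week 6 share was not tested. When no CD3 threshold was set, the week 6 share was 53.7% and the order of the weeks had no exception (rank correlation 1.00, exact permutation test, adjusted p = 0.000198), although 616 cells then passed at week 0.

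Within the CD4 T cells the share lacking both proteins showed no trend with week. Week 1, with 521 CD4 T cells, had 82.9%, weeks 2 and 3 had 63.0% and 61.5%, and weeks 4 to 7 had 75.6%, 69.1%, 79.8% and 64.0%. These cells were the largest of the 3 subsets in every library of weeks 1 to 7 and in the treated library. The rank correlation was -0.04 over 7 libraries (exact permutation p = 0.963, adjusted p = 0.963; Pearson's r -0.14, exact permutation p = 0.759), and its sign depended on single libraries, being 0.543 without week 1. With 7 libraries a rank correlation short of the threshold does not show that the share was constant.

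The make-up of the other CD4 T cells differed between weeks. At week 1, 8.64% of CD4 T cells were CD103+ and 8.45% were KLRG1+CD103-. At weeks 2 and 3 the other cells were mainly KLRG1+CD103- cells, 31.6% and 30.8% of CD4 T cells, with 5.32% and 7.73% CD103+ cells. At weeks 4 and 6 the shares were 13.8% and 11.8% CD103+ cells, with 10.6% and 8.45% KLRG1+CD103- cells. At weeks 5 and 7 they were mainly CD103+ cells, 23.4% and 24.6%, with 7.53% and 11.4% KLRG1+CD103- cells. The rank correlation with week was 0.786 for the CD103+ share (exact permutation p = 0.0480, adjusted p = 0.0960) and -0.143 for the KLRG1+CD103- share (exact permutation p = 0.783, adjusted p = 0.963), so neither passed. When gates were set on counts scaled to the median total of each library, the CD103+ share passed (rank correlation 0.964, exact permutation test, adjusted p = 0.00556). With those scaled counts, KLRG1- CD103- cells were 71.1% of CD4 T cells at week 2 and 51.1% at week 3. Of the KLRG1- CD103- cells, 52.6% had no KLRG1 count at week 2 and 9.52% at week 3.

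**Figure D2:**
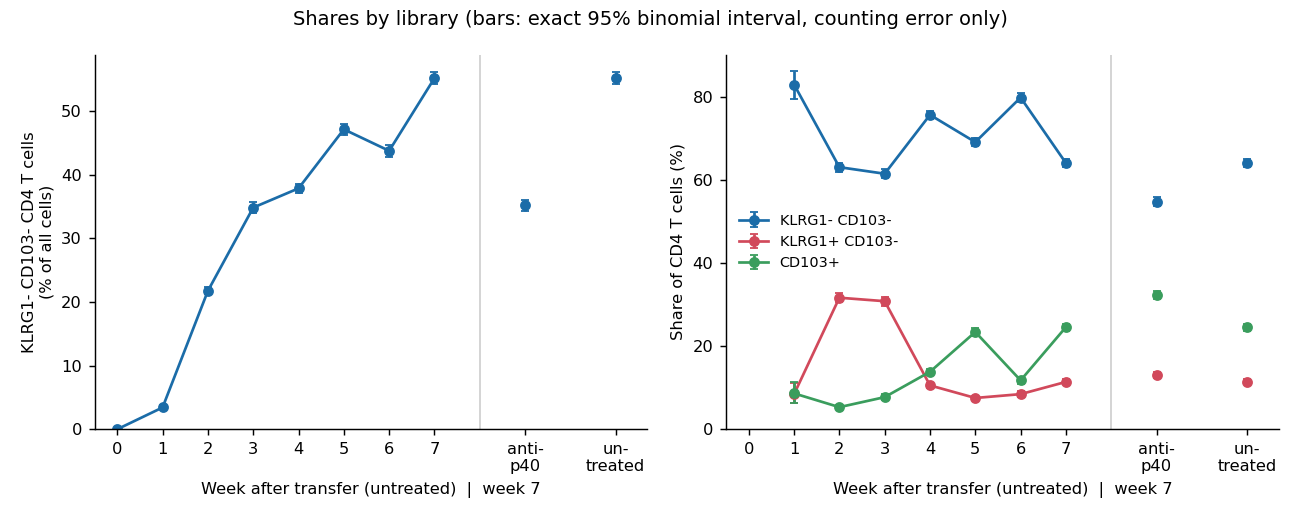
Left, KLRG1- CD103- CD4 T cells as a percent of all cells in each library by week, and right, the 3 CD4 T cell subsets as a percent of CD4 T cells, with the week 7 library given anti-IL-12p40 (anti-p40) beside the untreated one. Bars are exact 95% binomial intervals; the share of all cells ran from 0.00598% to 55.1% over the untreated weeks, while that of CD4 T cells stayed between 61.5% and 82.9%.

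On the surface, the T cell antibodies dominated the counts of these cells. CD90.2, a small glycoprotein of T and innate lymphoid cells, made up 50.5% to 66.4% of their antibody counts in the untreated libraries of weeks 1 to 7. Its median was 589, 550, 806, 376, 544.5, 977 and 758.5 counts per cell at weeks 1 to 7. The week 4 and week 6 libraries set the low and high ends, and there was no order with time (rank correlation of the centred level -0.357, exact permutation p = 0.444, adjusted p = 0.444). CD4, the coreceptor for MHC class II, had medians of 176.5, 145, 180, 156, 270, 219 and 276 counts at weeks 1 to 7. The 3 latest weeks were above the 4 earlier ones. CD3, the signalling part of the T cell receptor, had medians of 46, 36, 70, 50, 52, 36 and 58 counts, lowest at weeks 2 and 6. In the CD3-CD4-CD90.2+ cells of the same libraries, the medians were 1 to 7 CD3 counts and 1 to 9 CD4 counts. Those cells were chosen for low CD3 and CD4, so this gap is set by the thresholds.

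**Figure D3:**
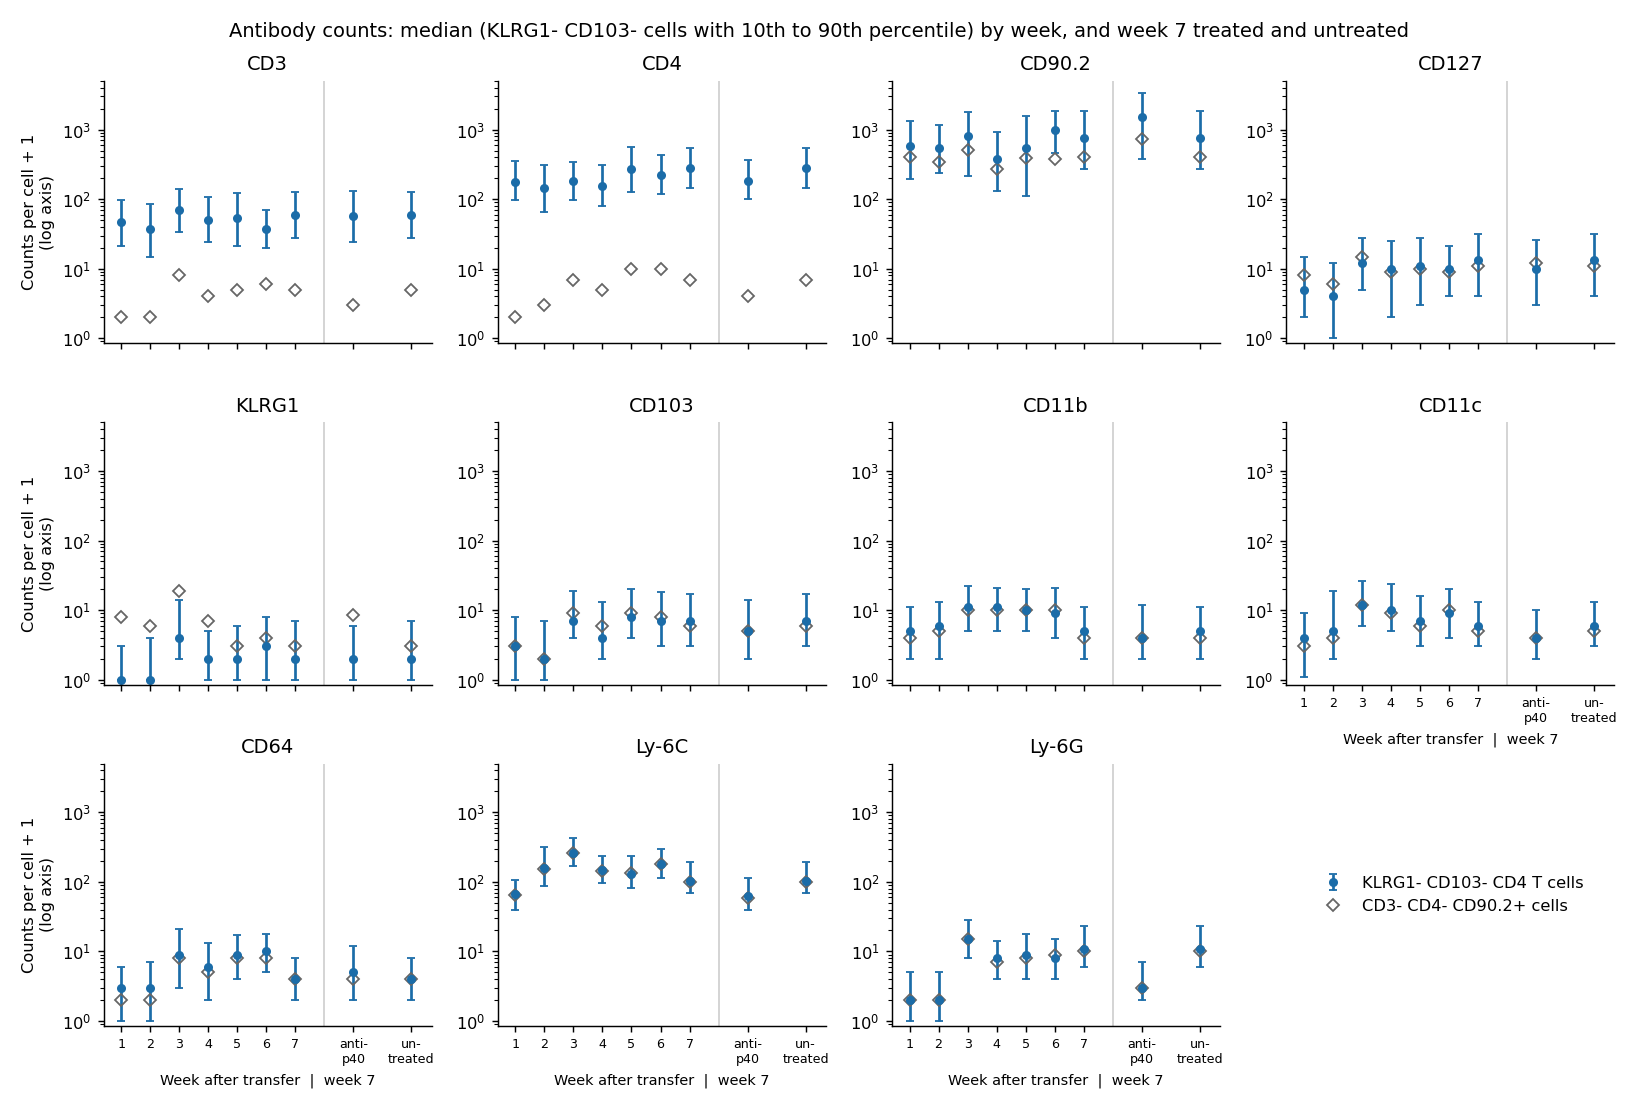
Median counts per cell plus 1, on a log axis, of the 11 antibodies in KLRG1- CD103- CD4 T cells (filled, bars from the 10th to the 90th percentile of cells) and in CD3-CD4-CD90.2+ cells (open diamonds), for untreated weeks 1 to 7 and for week 7 with and without anti-IL-12p40 (anti-p40). CD3 and CD4, whose thresholds separate the 2 groups by choice, stand far above the open diamonds. Ly-6C and Ly-6G lie on the diamonds and move with them from library to library.

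The antibodies that set no threshold were compared as a level, which is ln(count + 1) less its mean in the same cell over the 5 such antibodies (CD90.2, CD127, Ly-6C, CD11c and Ly-6G), averaged over cells. None of the 5 levels in KLRG1- CD103- cells had a trend with week by the exact permutation test of rank correlation over 7 libraries, and 0 of 5 had an unadjusted p under 0.05. The rank correlations were 0.393 for CD127, 0.643 for Ly-6G, -0.357 for CD90.2, -0.429 for Ly-6C and -0.464 for CD11c, each with an adjusted p of 0.444. Cells within a library differed more than libraries did. For CD127 the median SD between cells was 0.593 natural log units and the SD between the 7 library means was 0.219, and for CD90.2 these were 0.532 and 0.383.

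CD127 had medians of 4, 3, 11, 9, 10, 9 and 12.5 counts per KLRG1- CD103- cell at weeks 1 to 7. Weeks 1 and 2 were low and week 7 was the highest. At week 2, 19.3% of these cells had no CD127 count, and at week 3 0.503% had none. In CD3-CD4-CD90.2+ cells, which include the innate lymphoid cells that depend on interleukin-7, the medians were 7, 5, 14, 8, 9, 8 and 10 counts. Relative to those cells, a comparison chosen after the data were seen, the CD127 level was -0.50, -0.45 and -0.24 at weeks 1 to 3 and -0.02, 0.00, 0.01 and 0.02 at weeks 4 to 7. That difference rose in every week, mostly up to week 4 and by small steps after it (rank correlation 1.00, exact permutation p = 0.000397, adjusted p = 0.00198 over 5 antibodies). The CD127 level of the CD3-CD4-CD90.2+ cells was itself -0.75 at week 1 and -1.11 at week 7, and their number was 4864 at week 1 and 99 at week 7. How far a change in those cells accounts for the difference was not tested. The other CD4 T cells also had higher CD127 levels at untreated week 7 than at week 2. These were -0.87 against -1.66 on CD103+ cells and -1.34 against -2.03 on KLRG1+CD103- cells. The rise is therefore not shown to be particular to KLRG1- CD103- cells.

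The second comparison asked whether CD4 T cells without KLRG1 and CD103 differ from the other CD4 T cells in proteins that did not choose them. It was made within each of 7 libraries (untreated weeks 2 to 7 and the treated library), since week 1 had 44 KLRG1+CD103- and 45 CD103+ cells. The exact sign-flip permutation test over 7 libraries cannot go below p = 0.0156, which is an adjusted p of 0.0223 over 10 differences here. The 5 antibodies enter the selection through the cell's mean over all 11, so they are not wholly independent of it.

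CD127 was higher on KLRG1- CD103- cells than on KLRG1+CD103- cells in 7 of 7 libraries. The medians were 3, 11, 9, 10, 9 and 12.5 counts per KLRG1- CD103- cell at untreated weeks 2 to 7 and 9 in the treated library. The KLRG1+CD103- cells had medians of 1, 7, 4, 5, 6 and 8 counts at those weeks and 5 in the treated library. The level averaged -1.33 on KLRG1- CD103- cells and -1.62 on KLRG1+CD103- cells, a difference of 0.29 ± 0.09 (SD, n = 7 libraries; exact sign-flip permutation p = 0.0156, adjusted p = 0.0223). The smallest difference was 0.17 at week 6 and the largest 0.45 at week 4. Depth differed too, since the median KLRG1- CD103- cell had 0.986 to 1.19 times the counts of the median KLRG1+CD103- cell and more counts in 6 of 7 libraries. That ratio was 0.986, 1.13, 1.13, 1.17, 1.17 and 1.15 at untreated weeks 2 to 7 and 1.19 in the treated library. The CD127 differences were 0.30, 0.21, 0.45, 0.31, 0.17 and 0.25 at those weeks and 0.34 in the treated library. A relation between the ratio and the difference was not tested. With each cell thinned to 200 counts the difference fell from 0.29 to 0.17, the lowest value of the 11 settings tried. Under the other 10 settings it was up to 0.53. It passed the same exact permutation test in all 11 (adjusted p at most 0.0469). The value of 0.53 comes from centring over all 11 antibodies, a mean that holds KLRG1 itself.

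Against CD103+ cells the CD127 difference ran the other way. CD103+ cells had medians of 4, 15, 11, 13, 10 and 17 CD127 counts at untreated weeks 2 to 7 and 10 in the treated library, above the KLRG1- CD103- cells in 7 of 7 libraries. The level averaged -1.33 on KLRG1- CD103- cells and -1.20 on CD103+ cells, a difference of -0.13 ± 0.06 (SD, n = 7 libraries; exact sign-flip permutation p = 0.0156, adjusted p = 0.0223). KLRG1- CD103- cells were also shallower in 7 of 7 libraries, with 0.875 to 0.940 times the counts of CD103+ cells. After thinning to 200 counts the difference was -0.06 and did not pass (exact permutation test, adjusted p = 0.0670). With thresholds lowered by 0.25 it was -0.08 over 8 libraries (exact permutation test, adjusted p = 0.182), and without a CD3 threshold, a wider gate that brings in 9 libraries, it was 0.07 (exact permutation test, adjusted p = 0.613).

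**Figure D4:**
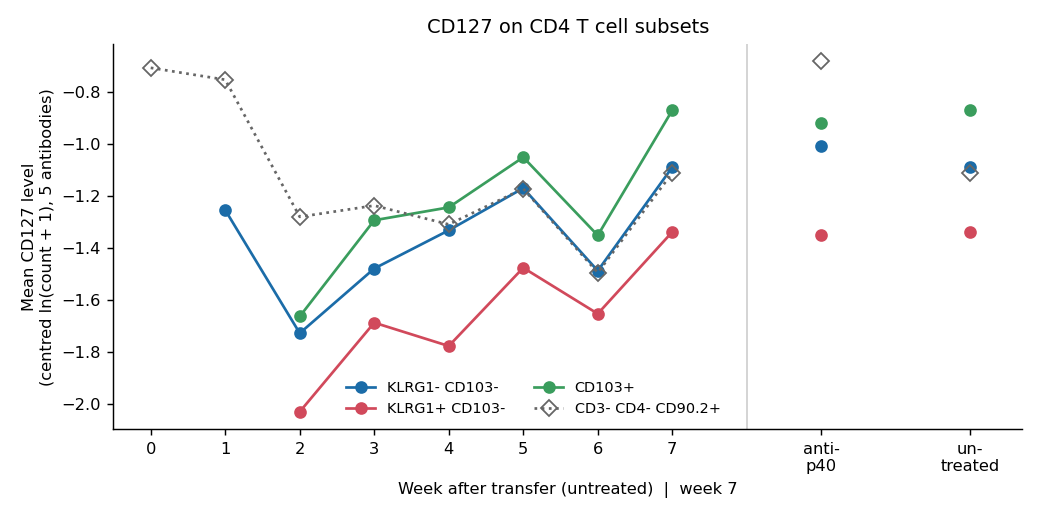
Mean CD127 level (natural log of count plus 1, centred over 5 antibodies) by week in KLRG1- CD103- cells, the other CD4 T cell subsets with at least 50 cells and CD3-CD4-CD90.2+ cells, with week 7 anti-IL-12p40 (anti-p40) beside untreated. In each of the 7 libraries that hold all 3 subsets, KLRG1- CD103- cells lie between CD103+ cells above and KLRG1+CD103- cells below.

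The other 8 differences are, like those of CD127, relative to the mean of the 5 antibodies. The 5 differences from a subset therefore cancel out in total, and a high value for 1 antibody lowers those of the others. The passes counted below are thus not independent of each other. Leaving out the centring adds 0.156 to all 5 differences from KLRG1+CD103- cells and -0.089 to all 5 from CD103+ cells, and centring over all 11 antibodies, with KLRG1 and CD103 among them, adds 0.246 and 0.201. Signs that turn under those settings are therefore fixed by the setting. CD90.2 averaged 2.99 on KLRG1- CD103- cells, against 2.96 on KLRG1+CD103- cells and 2.97 on CD103+ cells, and neither difference passed (exact sign-flip permutation test, adjusted p = 0.226 and 0.516). Without week 2 the difference from KLRG1+CD103- cells was 0.05 and passed (exact permutation test over 6 libraries, adjusted p = 0.0391). Ly-6C, a surface protein of monocytes and of activated or memory T cells, was lower than on KLRG1+CD103- cells by a level of 0.13 and higher than on CD103+ cells by 0.11, each in 7 of 7 libraries (exact permutation test, adjusted p = 0.0223). The difference from CD103+ cells was 0.02 to 0.31 under the 11 settings tried and passed in each (exact permutation test, adjusted p at most 0.0391). The 0.02 is without centring, and the 0.31 comes from centring over all 11 antibodies, a mean that holds CD103. Median Ly-6C counts on KLRG1- CD103- and CD103+ cells were 103 and 104 at untreated week 7 and 61 and 60 in the treated library. The higher level is thus mostly relative to the other antibodies. CD11c and Ly-6G, markers of dendritic cells and neutrophils, had levels lower than on KLRG1+CD103- cells by 0.09 and 0.10 (exact permutation test, adjusted p = 0.0223 for both). Without centring, Ly-6C, CD11c and Ly-6G were instead higher than on KLRG1+CD103- cells, by 0.02, 0.07 and 0.06. Their lower levels are therefore relative to the other antibodies and do not show lower counts. Ly-6G was 0.10 higher than on CD103+ cells (exact permutation test, adjusted p = 0.0223), which did not pass after thinning (0.05, adjusted p = 0.0625) or without centring (0.02, adjusted p = 0.25). CD11c did not differ from CD103+ cells past the threshold (-0.10 ± 0.19, SD, n = 7 libraries; exact permutation test, adjusted p = 0.226), with -0.48 at week 2, when 24.9% of CD103+ cells and 5.50% of KLRG1- CD103- cells were CD11c+. The differences that passed include those of CD11c and Ly-6G, which were positive on at most 5.50% and 0.114% of KLRG1- CD103- cells. At untreated week 7 the Ly-6G median was 10 counts on KLRG1- CD103- and CD103+ cells and 9 on KLRG1+CD103- cells. In all, 7 of 10 differences passed, and 4 of 10 after thinning to 200 counts per cell. When counts were first scaled to each library's median total, 10 of 10 passed. In that case CD90.2 was higher on KLRG1- CD103- cells than on KLRG1+CD103- cells by 0.15 and than on CD103+ cells by 0.20, and CD11c differed from CD103+ cells by -0.22 (exact permutation test, adjusted p = 0.0347, 0.0195 and 0.0195).

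**Figure D5:**
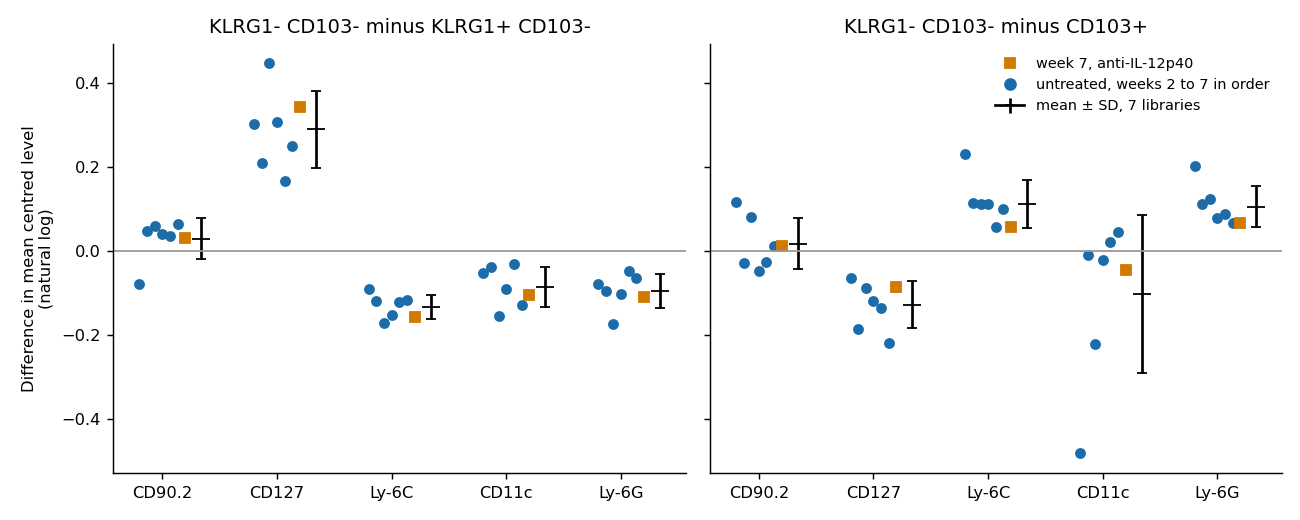
Difference in mean level (natural log units, centred over 5 antibodies) between KLRG1- CD103- cells and KLRG1+CD103- cells (left) or CD103+ cells (right) in each of 7 libraries, with the mean ± SD beside them. CD127 lies above 0 on the left, between 0.17 and 0.45, and below 0 on the right in every library, with the treated library (square) among the untreated ones.

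Median Ly-6C and Ly-6G counts on these cells lay close to those of CD3-CD4-CD90.2+ cells from library to library. Ly-6C medians in KLRG1- CD103- cells were 66, 158, 255, 146, 129, 177 and 103 counts at weeks 1 to 7, and in CD3-CD4-CD90.2+ cells they were 64, 154, 255, 144, 133, 180 and 97. Ly-6G, which T cells lack, had medians of 1, 1, 14, 7, 8, 7 and 10 counts in KLRG1- CD103- cells and 1, 1, 14, 6, 7, 8 and 9 in CD3-CD4-CD90.2+ cells. In both cell types Ly-6C was lowest at week 1 and highest at week 3.

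From cell to cell, counts were positively correlated in each of the 15 antibody pairs computed in each of 8 libraries; the cells of a library share its staining, and the antibodies of a cell share its depth. Across KLRG1- CD103- cells of a library, CD3 and CD4 counts had a rank correlation of 0.483 to 0.638 in 8 libraries, and 0.133 to 0.524 when each was taken as a share of the cell's counts. CD4 and CD127 counts had 0.354 to 0.536, and as shares -0.102 to 0.393, with no common sign.

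The third comparison asked what anti-IL-12p40 changed at week 7, with 1 treated library against 1 untreated library, a design that allows no test and gives no replicate check. KLRG1- CD103- CD4 T cells were 4374 of 12437 cells, 35.2% (34.3 to 36.0), in the treated library, against 6566 of 11907 cells, 55.1% (54.2 to 56.0), in the untreated one, a ratio of 0.638. The treated share lay below the 43.7% to 55.1% of untreated weeks 5 to 7 and was close to that of untreated week 3 (34.8%, 34.0 to 35.7). KLRG1+CD103- cells were 8.37% (7.89 to 8.87) in the treated library and 9.82% (9.29 to 10.4) in the untreated one, a ratio of 0.853. CD103+ cells were 20.7% (20.0 to 21.5) in the treated and 21.2% (20.4 to 21.9) in the untreated library, a ratio of 0.979. Both treated shares lay inside those of untreated weeks 5 to 7, which were 4.63% to 9.82% and 6.45% to 21.2%. The intervals hold no spread between pools. Cells with the CD3-CD4-CD90.2+ phenotype were 1860 of 12437 in the treated library and 99 of 11907 in the untreated one, and shares of one whole cannot be told apart from a change in the number of other cells.

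Among CD4 T cells, those lacking both proteins were 54.7% (53.6 to 55.8) with anti-IL-12p40 and 64.0% (63.1 to 65.0) without, a ratio of 0.855. The treated share was below those of untreated weeks 1 to 7, the lowest of which was 61.5% at week 3, but with scaled counts it was 62.0%, above the 51.1% of untreated week 3. The ratio was 0.979 with counts scaled to each library's median total, 0.937 when centred over the 6 gating antibodies and 0.906 when thinned to 200 counts. Under the other 5 of 8 settings it was 0.839 to 0.869. The size of this difference thus varied with the scaling. CD103+ cells made up 32.3% (31.2 to 33.3) of treated and 24.6% (23.7 to 25.4) of untreated CD4 T cells, and KLRG1+CD103- cells 13.0% (12.3 to 13.8) of treated and 11.4% (10.8 to 12.0) of untreated ones. KLRG1 sat on 24.8% of the treated CD103+ cells, 639 of 2578, against 4.28%, 108 of 2521, of the untreated ones at week 7. Untreated week 2 also had 23.6%, 91 of 385, and untreated week 5 had the lowest share, 2.66%.

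KLRG1- CD103- cells carried more CD90.2 in the treated library, with a median of 1536 counts per cell against 758.5 in the untreated library of week 7. The highest median in untreated weeks 1 to 7 was 977. The other CD4 T cells shared this, with 1271 against 627 counts on KLRG1+CD103- cells and 1536 against 848 on CD103+ cells. CD90.2 was also higher in the CD3-CD4-CD90.2+ cells of the treated library, with 740 counts against 399, and total counts per KLRG1- CD103- cell were higher, 1901.5 against 1294. The part of staining or depth in this was not tested. CD4 had a median of 179 counts in treated cells, against 276 in untreated ones, inside the 145 to 276 of untreated weeks 1 to 7, and CD3 had 57 against 58. CD127 had 9 against 12.5 counts, and its level was -1.01 against -1.09, so that counts and centred level differed in direction. Relative to CD3-CD4-CD90.2+ cells the CD127 level was -0.32 in the treated library, against 0.02 in the untreated one of week 7. Ly-6C had a median of 61 against 103 counts and Ly-6G 2 against 10. In CD3-CD4-CD90.2+ cells the values were 58 against 97 for Ly-6C and 2 against 9 for Ly-6G, and neutrophil-type cells (CD11b+Ly-6G+) were 0.490% of the treated and 5.42% of the untreated library. Their part in the Ly-6G counts of T cells was not tested.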

How the data were processed

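Antibody tables of 9 SCID immune libraries were used. The authors deposited raw counts, whole numbers per antibody and barcode. Seurat 4.1.1 and Cell Ranger 6.0.2, with the build mm10, are named without their roles in the submitters' processing notes. The selection of barcodes is not described in the sources used here. Each library pooled 3 animals per the series' design text, and about 16000 cells were loaded per the labels' protocols.

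Barcodes with under 50 counts, or above their library's 99th percentile, were left out. The centred log ratio was ln(count + 1) minus the cell's mean over 11 antibodies. Thresholds were -0.155 (CD3, above), 0.652 (CD4, above), and -0.589 (KLRG1), 0.149 (CD103), 0.712 (CD11b) and 0.105 (CD64), each not exceeded. Positivity for other antibodies was the equal-probability point of a 2-component Gaussian mixture. CD127 (Ashman's D 1.55) and Ly-6C (1.82) were not separable, so their counts and levels are given. CD3- myeloid cells were CD3- with CD11b or CD64, and CD3-CD4-CD90.2+ cells also lacked CD11b, CD64 and CD11c. Trends used exact permutation tests over all orderings of libraries, and subset differences exact sign-flip permutation tests, with Benjamini-Hochberg adjustment at 0.05 within 4 share trends, 5 level trends and 10 differences. Subsets needed 50 cells. All 11 antibodies are named. The statistical functions were tested on simulated data. The members, lists and tests were chosen with earlier results of these data known. The tools were scikit-learn 1.9.0 for mixtures, scipy 1.17.1 for intervals, pandas 2.3.3 and numpy 2.4.6 under Python 3.11.15, with figures from matplotlib 3.10.9.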

Additional observations from a re-analysis of the deposited data

Results flagged for a closer look

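In 3 of the 10 within-library differences, the week 2 library lay far from the other 6 by Dixon's criterion, which chance meets in about 1 in 20 groups. The CD90.2 level of KLRG1- CD103- cells minus that of KLRG1+CD103- cells was -0.079 at week 2, against 0.03 to 0.06 in the others. Without week 2 this difference averaged 0.05 and passed (exact sign-flip permutation test over 6 libraries, adjusted p = 0.0391). The Ly-6C level minus that of CD103+ cells was 0.23 at week 2, against 0.06 to 0.11, and the Ly-6G level minus that of CD103+ cells was 0.20, against 0.07 to 0.12. Levels are centred over 5 antibodies, and in the same library 24.9% of the 385 CD103+ cells were CD11c+. The part of these CD11c+ cells in the Ly-6C and Ly-6G values was not tested.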

How the results depend on the processing

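No paired analysis was possible because each week and treatment is 1 library, so replicate numbers pair nothing; differences between subsets are taken within libraries. The libraries, 1 pool each, and the depth of antibodies at a few counts per cell limit what can be seen. The rise of KLRG1- CD103- cells among all cells kept its direction in 18 of 18 alternatives and passed in 16. It did not pass without weeks 0 and 7 (0.943) or without weeks 1 and 7 (0.900), which leaves 6 and 5 libraries. With 5 libraries the exact permutation test cannot go below p = 0.0167, an adjusted p of 0.0667 when the other 3 trends have larger p-values, so that setting says little. Values with each library left out were 0.964 to 1.00. The rank correlation of their share of CD4 T cells, which passed under none, turned positive with thresholds raised by 0.25 (0.179), without weeks 0 and 7 (0.029) and without weeks 1 and 7 (0.800), and was -0.257 to 0.543 with each library left out.

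The treated to untreated ratio of the share of all cells was 0.686 with scaled counts, 0.665 thinned to 200 counts, 0.670 centred over the 6 gating antibodies, 0.659 without a CD3 threshold and 0.663 with at least 200 counts. For the share of CD4 T cells it was 0.979 scaled, 0.906 thinned and 0.937 with gating-antibody centring. Thinning left 4 of 10 level differences passing, and 7 to 8 passed with each library left out. Relative to CD3-CD4-CD90.2+ cells, an alternative chosen after seeing the data, 1 of 5 level trends passed, CD127, both with centring and without (rank correlation 0.964 without, adjusted p = 0.0139 by the exact permutation test), and the CD127 trend also passed with each library left out in turn (1.00). Of the centred levels without that subtraction, 0 passed with any library left out. CD90.2 and CD11c helped to choose the CD3-CD4-CD90.2+ cells and are among the 5 antibodies of the level. Levels relative to those cells are therefore not independent of that choice.

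Other trends turned as follows, and the cause was not tested. The KLRG1+CD103- share trend was 0.107 with scaled counts, and -0.600 to 0.086 with each library left out. The CD90.2 level trend was 0.095 without a CD3 threshold, 0.393 without centring, 0.036 and 0.286 relative to CD3-CD4-CD90.2+ cells (centred and not), and -0.543 to 0.029 with each library left out. The CD127 trend was -0.238 without a CD3 threshold, the Ly-6C and CD11c trends 0.036 and 0.321 without centring, and the Ly-6G trend -0.464 relative to CD3-CD4-CD90.2+ cells. Leaving out the centring, or centring over all 11 antibodies, shifts the 5 differences of a comparison by the same amount, which fixes the following turns under those settings; the cause of the others was not tested. Differences from KLRG1+CD103- cells turned without centring for Ly-6C (0.022), CD11c (0.069) and Ly-6G (0.060), and centred over all 11 antibodies they were 0.11, 0.16 and 0.15 for these antibodies. Differences from CD103+ cells turned for CD90.2 with thresholds raised (-0.0074) and without centring (-0.073), and were -0.00028 to 0.027 with each library left out. They turned for CD127 without a CD3 threshold (0.066) and centred over all 11 antibodies (0.072), and for CD11c as a median level (0.0095) and centred over all 11 antibodies (0.10).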
